A study of Mus musculus with 21 samples.

Results

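RPA (replication protein A) was mapped by ChIP-seq at 7 loci, those of Ptgr2, Cd24a, Slit3, Slc7a10, Rif1, Myo5a and Pag1. There, neighbouring peaks, many but not all of them broad, stood on either side of a short gap in at least 1 list. A peak was counted at a locus when its summit lay inside the gene body or within 30 kb of it. This gave 30 of the 683 peaks in the 6 deposited peak lists, at 15 distinct sites. The genes were chosen because these same lists showed strong neighbouring peaks there. The number of peaks, their widths, folds and pairing are therefore a description and carry no test.

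The cells were passage-immortalized ATR+/- mouse embryonic fibroblasts, so every group, controls included, carried the heterozygous Atr genotype. The groups were DMSO for 18 h, 0.2 µM aphidicolin (APH) for 18 h, 1 µM of the ATR inhibitor ATR-45 (ATRi) for 18 h, ATRi with APH at the same doses for 9 h or for 18 h, and 1 µM ATRi for 18 h in cells with Timeless knocked down (ATRi+shTIM). There were 21 libraries, 13 of ChIP with an antibody against the RPA32 subunit and 8 of input chromatin. Each list was made from 2 ChIP libraries, except for 3 in ATRi+APH 18 h. A list has 1 value per peak for all libraries of its treatment, so no spread between replicates exists and read depth is unknown. The antibody came from 3 lots in ATRi+APH 18 h, from 2 in DMSO, ATRi and ATRi+APH 9 h, and from 1 in APH and in ATRi+shTIM, so lot, number of libraries and treatment cannot be told apart.

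RPA coats the single-stranded DNA that is exposed when a replication fork stalls and unwinding runs ahead of synthesis, and it accumulates further when broken ends are resected. The kinase ATR is recruited to RPA-coated DNA and keeps stalled forks from collapsing. Aphidicolin slows the replicative polymerases, and Timeless, with Tipin, ties the helicase to the polymerases at the fork. The comparison of the lists asked which sites gather RPA when ATR is inhibited alone or with either of these further stresses.

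Of the 7 loci, 5 lay outside protein-coding genes and 2 inside one. The peaks near Ptgr2, which encodes a reductase of prostaglandin metabolites, spanned chromosome 12, 84280555 to 84285121 (mm10, 1-based) and ended 116 bp before the annotated gene body, which is on the plus strand. Those near Rif1, which encodes a regulator of replication timing and a protector of broken DNA ends, spanned chromosome 2, 52064701 to 52069220, with Rif1 3595 bp and Tnfaip6, which encodes a secreted hyaluronan-binding protein, 8020 bp away. Those near Cd24a, which encodes a glycosylphosphatidylinositol-anchored surface glycoprotein, spanned chromosome 10, 43560888 to 43564347, 14822 bp from the gene. Those near Slit3, a secreted ligand of Robo receptors, spanned chromosome 11, 35729208 to 35733213, 20701 bp beyond the end of the gene on its plus strand and 36282 bp from Pank3. Those near Slc7a10, which encodes a light-chain transporter of small neutral amino acids, spanned chromosome 7, 35155300 to 35164001, 22094 bp from the gene and 33372 bp from Cebpa, which encodes a transcription factor of fat and myeloid cells. This last stretch overlapped 2 predicted lncRNA genes. The peaks in Myo5a, an actin-based motor of vesicle transport, spanned chromosome 9, 75081230 to 75084859, and those in Pag1, a membrane adaptor that recruits the kinase Csk, spanned chromosome 3, 9801689 to 9804481. Whether these intragenic peaks lie in exons or introns was not analysed here.

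The window of the rule was not close to any other peak. The member summit farthest from its gene was that of the left Slc7a10 peak in ATRi, at 26409 bp. The nearest peak outside the window lay 569689 bp from Rif1, in the ATRi list (fold 10.1, width 715 bp).

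Promoter sequence lay under a peak at 2 of the loci, and it is shown because only peaks of ATRi+APH 18 h reached it. The right Ptgr2 peak was in that list alone, and the left Slc7a10 peak was widest there. Both promoter sequences are from RefSeq (GRCm38.p6), which gave them for 4 of the 7 genes. The right Ptgr2 peak of ATRi+APH 18 h covered 76 bases of the Ptgr2 promoter, shown in capitals, in chr12:84285046-84285236 (plus strand), and stopped short of the annotated start. The left Slc7a10 peak of the same list covered the whole promoter of a predicted lncRNA gene, of which chr7:35156837-35157086 (minus strand) is shown, all in capitals.
Ptgr2: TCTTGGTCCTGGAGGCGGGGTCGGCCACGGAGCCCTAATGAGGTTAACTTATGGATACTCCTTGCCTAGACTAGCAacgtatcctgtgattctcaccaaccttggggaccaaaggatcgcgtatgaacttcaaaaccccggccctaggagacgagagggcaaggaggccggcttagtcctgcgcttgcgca
lncRNA gene at the Slc7a10 locus: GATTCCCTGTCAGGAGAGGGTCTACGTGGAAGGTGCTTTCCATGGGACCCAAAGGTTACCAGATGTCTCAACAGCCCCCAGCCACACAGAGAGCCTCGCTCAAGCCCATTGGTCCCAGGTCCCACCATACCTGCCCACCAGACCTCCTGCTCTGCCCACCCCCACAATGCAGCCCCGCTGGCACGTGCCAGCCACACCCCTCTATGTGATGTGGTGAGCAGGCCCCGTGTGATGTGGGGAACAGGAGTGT
Over the whole 300 bases of each promoter window, the Ptgr2 sequence had 57.7% G and C and 18 CpG dinucleotides, and that of the lncRNA gene had 61.7% and 7. The medians over all 32851 promoters were 52.7% and 7. The sequences of the gaps between the peaks were not analysed here.

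All 7 loci were in the ATRi+APH 18 h list, with 15 of its 327 peaks, and each held a pair, meaning 2 neighbouring peaks with at most 5 kb between them. All 15 had a neighbour within this distance, as did 48.3% of all peaks in that list. The loci were chosen on that pattern, so nothing is read from the count. The ATRi list and the ATRi+APH 9 h list each held 5 peaks at 4 of the loci, with a pair at 1 locus in each. In each, 2 of the 5 peaks thus had a neighbour (33.9% of all peaks did in ATRi and 24.6% in ATRi+APH 9 h). The ATRi+shTIM list held 5 peaks at 3 loci, with pairs at 2, so 4 of the 5 peaks had a neighbour (36.7% of all its peaks did). The DMSO list, of 46 peaks, and the APH list, of 1 peak, held none at these loci (23.9% and 0% of all their peaks had a neighbour).

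**Figure D1:**
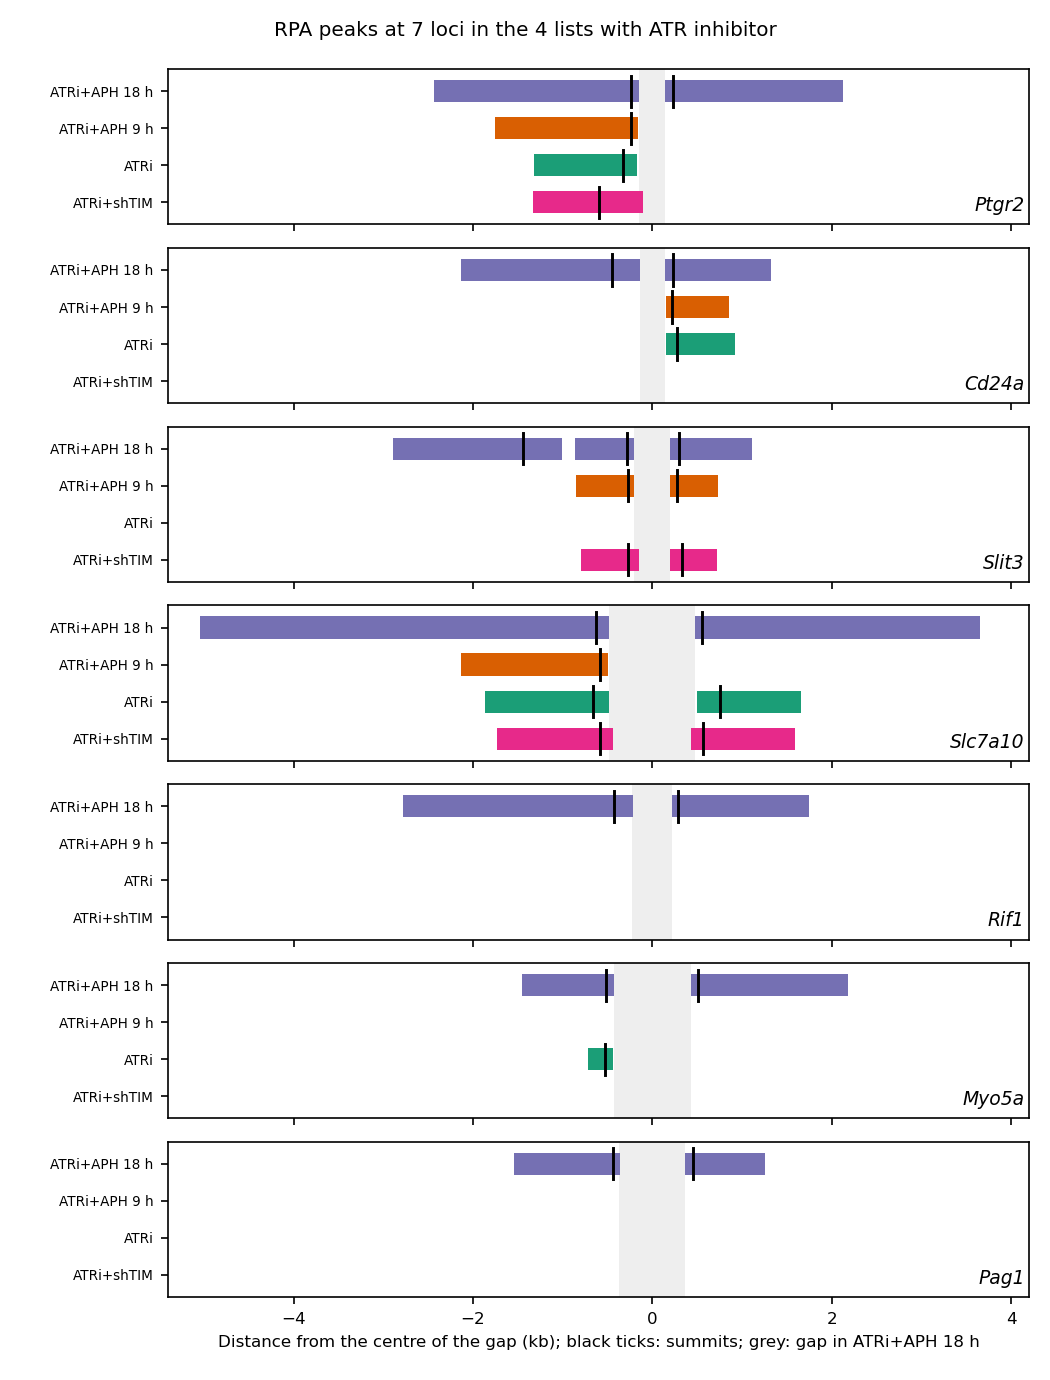
Listed RPA peaks at the 7 loci in the 4 lists with ATR inhibitor, drawn as bars by distance in kb from the centre of the gap, with summits as black ticks and the ATRi+APH 18 h gap in grey (at Slit3 the gap between the middle and right peaks). Where lists share a peak, its ends beside the gap lie at nearly the same place, while its far ends differ. The exception is the middle Slit3 peak, which varies over 59 bp at both edges. Rif1 and Pag1 have bars in ATRi+APH 18 h only. The Slc7a10 bars of ATRi+APH 18 h are the widest.

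The lists differed in where they ended. The lowest −log10 p of a listed peak was 10.7 in ATRi+shTIM, 21.7 in ATRi+APH 18 h, 29.9 in ATRi, 34 in ATRi+APH 9 h and 39.5 in APH, against 10 in DMSO. A locus missing from a list is therefore below that list's own floor or was not called, and its signal is unknown. Held to a common −log10 p of at least 34, a threshold chosen after seeing the data, ATRi+APH 18 h kept 15 peaks at the loci, ATRi+APH 9 h 5, ATRi 3 and ATRi+shTIM 2.

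Fold is the deposited ratio of ChIP over input at the summit and is read only within its own list. The pair near Slc7a10 was the strongest of the 7 in ATRi+APH 18 h. It was the only pair at the loci in ATRi, and in ATRi+shTIM the only other was at Slit3, with lower folds. In ATRi+APH 18 h the left Slc7a10 peak had a fold of 45.5 (rank 3 of 327) and the right 39.9 (rank 6). In ATRi the left peak had a fold of 13.3 (rank 5 of 56) and the right 9.87 (rank 23). In ATRi+shTIM the left peak had 36.3 (rank 6 of 188) and the right 18.1 (rank 35). The ATRi+APH 9 h list held only the left peak, at 32.3 (rank 8 of 65). The left peak thus outranked the right in each of the 3 lists with both. Its width was 4570 bp in ATRi+APH 18 h, 1646 bp in ATRi+APH 9 h, 1382 bp in ATRi and 1292 bp in ATRi+shTIM.

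Near Ptgr2, the left peak was in all 4 lists with ATR inhibitor and the right peak in 1. The left peak had a fold of 39.4 in ATRi+APH 18 h (rank 7 of 327), 30.7 in ATRi+APH 9 h (rank 11 of 65), 10.6 in ATRi (rank 17 of 56) and 13.8 in ATRi+shTIM (rank 54 of 188). The right peak, in ATRi+APH 18 h, had a fold of 29.2 (rank 21, tied with 1 other peak). The width of the left peak was 2292 bp in ATRi+APH 18 h, 1600 bp in ATRi+APH 9 h, 1224 bp in ATRi+shTIM and 1149 bp in ATRi. The left peak was thus the one shared by the lists, and it was widest in ATRi+APH 18 h.

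Near Cd24a, ATRi+APH 18 h held both peaks, the right with a fold of 33.5 (rank 12) and the left with 30.5 (rank 18). The right peak alone was in ATRi, with a fold of 9.14 (rank 26 of 56), and in ATRi+APH 9 h, with 16.1 (rank 42 of 65). Cd24a was the only locus at which the listed side was the right one, and no Cd24a peak was in ATRi+shTIM.

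Near Slit3, ATRi+APH 18 h held 3 peaks in a row. The left peak, of 1894 bp, had a fold of 12.6 (rank 98), the middle peak, of 660 bp, 29.2 (rank 21) and the right peak, of 909 bp, 22.8 (rank 32). The middle and right peaks were also in ATRi+APH 9 h, with folds of 17.8 (rank 33 of 65) and 18.3 (rank 31), and in ATRi+shTIM, with 9.16 (rank 110 of 188) and 11.5 (rank 72). The ATRi list held none of the 3. In width, the left peak was the largest of the 3 and in fold the lowest.

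In Myo5a, ATRi+APH 18 h held a left peak with a fold of 22.1 (rank 37) and a right peak with 22.5 (rank 34). The ATRi list held the left peak alone, with a fold of 8.78 (rank 30 of 56) and a width of 278 bp, against 1020 bp in ATRi+APH 18 h.

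The pairs at Rif1 and Pag1 were in ATRi+APH 18 h only. At Rif1 the left peak had a fold of 22.1 (rank 37, the same value as the left Myo5a peak) and a −log10 p of 74, and the right peak had 13 (rank 88) and 35.5. In Pag1 the left peak had a fold of 20.1 (rank 43) and a −log10 p of 72.7, and the right peak had 16.4 (rank 63) and 62.2. The folds of both Rif1 and Pag1 pairs were lower than those of the Slc7a10, Ptgr2, Cd24a and Myo5a pairs in that list, apart from the left Rif1 peak, which tied with Myo5a.

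**Figure D2:**
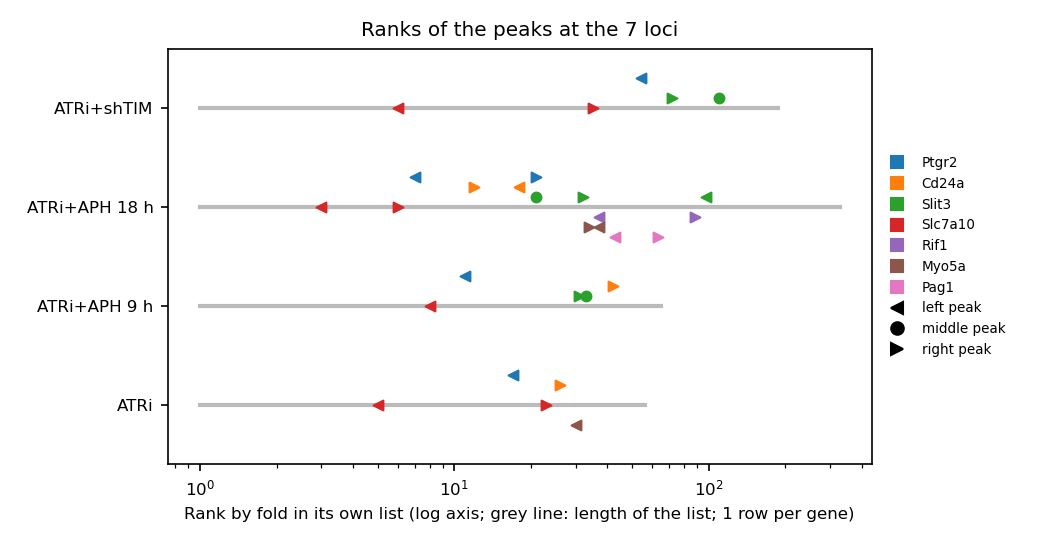
Rank of each peak at the 7 loci by fold within its own list, on a log axis, with a row of markers per gene and a grey line for the length of the list (56, 65, 327 and 188 peaks from bottom to top). The left Slc7a10 peak stands first among the loci in each list, at ranks 5, 8, 3 and 6.

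Of the 15 ATRi+APH 18 h peaks at the loci, 12 were wider than 1 kb, where 20.2% of that list were. The others were the middle and right Slit3 peaks and the right Pag1 peak. In ATRi 3 of 5 member peaks passed that width (32.1% of the list), in ATRi+APH 9 h 2 of 5 (26.2%) and in ATRi+shTIM 3 of 5 (11.7%). These were all Ptgr2 and Slc7a10 peaks.

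Each gap was shorter than either of its peaks, though by little at some loci. In ATRi+APH 18 h the left Myo5a peak was 1020 bp and the right Pag1 peak 887 bp, against gaps of 862 and 732 bp. In ATRi+APH 18 h the gap was 276 bp near Cd24a, 291 bp near Ptgr2, 442 bp near Rif1, 732 bp in Pag1, 862 bp in Myo5a and 957 bp near Slc7a10. Near Slit3 it was 143 bp between the left and middle peaks and 400 bp between the middle and right peaks. The median over 1 pair per locus, the widest, was 442 bp, against 380.5 bp over the 94 other pairs of the list. The summed width of the 2 peaks had a median of 3184 bp for the 7 loci (2061 to 7745 bp) and 723.5 bp for the other pairs, a difference fixed by the choice of broad pairs.

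The edges beside the gap lay at the following positions in ATRi+APH 18 h. The left Ptgr2 peak ended at 84282846 and the right began at 84283138. The left Cd24a peak ended at 43562888 and the right began at 43563165. The left Slc7a10 peak ended at 35159869 and the right began at 35160827. The left Rif1 peak ended at 52067257 and the right began at 52067700. In Myo5a these edges were at 75082249 and 75083112, and in Pag1 at 9802862 and 9803595. The middle Slit3 peak ran from 35731245 to 35731904, after a left peak that ended at 35731101 and before a right peak that began at 35732305.

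The Slc7a10 and Slit3 loci were the ones with a pair in more than 1 list. Near Slc7a10 it was 977 bp in ATRi, 957 bp in ATRi+APH 18 h and 868 bp in ATRi+shTIM. Near Slit3, between the middle and right peaks, it was 401 bp in ATRi+APH 9 h, 400 bp in ATRi+APH 18 h and 337 bp in ATRi+shTIM. Both gaps were shortest in ATRi+shTIM.

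Every one of the 30 member peaks had its summit nearer to the edge that faces the gap than to the far edge. The right edge of the middle Slit3 peak was taken as its facing edge, a choice made after seeing the data. The 30 peaks come from 15 sites, several of them in more than 1 list, and are not independent. In the 94 other pairs of ATRi+APH 18 h, 114 of 188 summits lay nearer to the gap. A peak between gaps was counted there for each of its gaps. In ATRi+APH 18 h both Ptgr2 summits lay 89 bp from the gap, with 2202 and 1894 bp of peak behind them. The Slc7a10 summits lay 146 and 80 bp from the gap, with 4423 and 3094 bp behind them. The Rif1 summits lay 204 and 69 bp from it, the Myo5a summits 82 and 78 bp and the Pag1 summits 77 and 82 bp. The Cd24a summits lay 310 bp (left) and 92 bp (right) from it. The left, middle and right Slit3 summits lay 442, 86 and 97 bp from their facing edges. The middle Slit3 summit lay 573 bp from the other gap, that on its left. Within the listed peaks of the other 6 loci, the summit thus lay toward the gap and most of the peak extended away from it. The lists give no signal within the gaps.

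Summits lay under 100 bp from the facing edge in 17 of the 30. Such distances were also usual in the 94 other pairs of ATRi+APH 18 h, where the median was 89 bp. Among the 30, the largest distance was 490 bp, at the left Ptgr2 peak of ATRi+shTIM, where the far edge was 733 bp away.

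Counted as pairs, 6 of the 7 representative pairs of ATRi+APH 18 h had both summits on the gap side. The exception was Slit3, where the widest pair was that of the left and middle peaks and the middle summit faced the other gap. Over all 102 pairs of the list the share was 44.1%, and 46 of the 158 peaks in them stood between 2 gaps like the middle Slit3 peak, so that a summit could face only 1 of its gaps. Over its 16 pairs of 2 peaks wider than 1 kb, a subset chosen after seeing the data, it was 93.8%. Of these 16 pairs 5 were at the member loci, and 10 of the 11 others had both summits on the gap side. The pair in ATRi, the pair in ATRi+APH 9 h and both pairs in ATRi+shTIM also had both summits there, where 50%, 44.4% and 31.9% of all pairs in those lists did. The other pairs had a median summit distance of 89 bp from the gap, the same as the members, with 140.5 bp against 1560 bp on the far side.

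**Figure D3:**
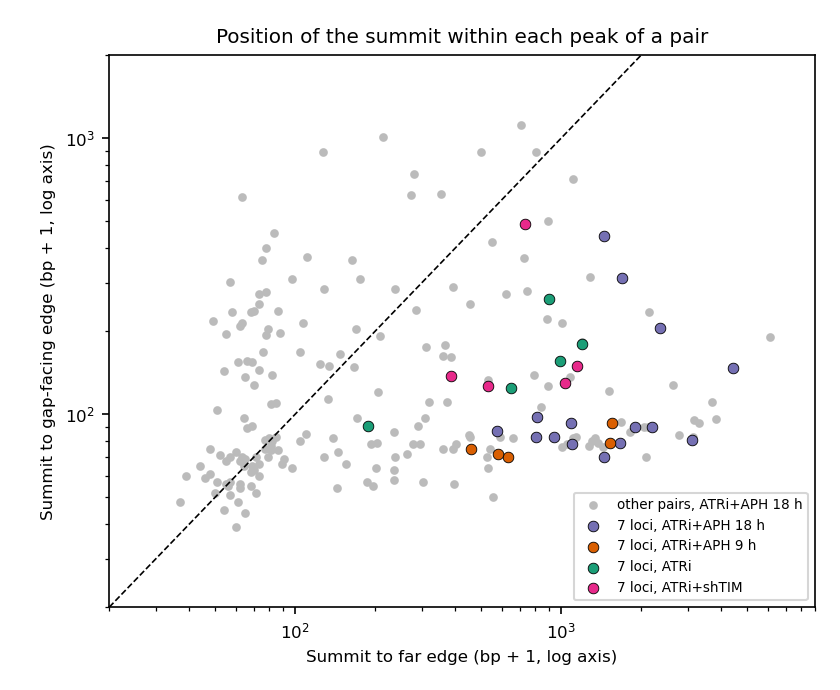
Distance of the summit from the gap-facing edge against its distance from the far edge, both in bp plus 1 on log axes, for member peaks of the 4 lists with ATR inhibitor (colours) and the peaks of other ATRi+APH 18 h pairs (grey), with equality as a dashed line. All 30 member peaks lie below the line, with summits 69 to 490 bp from the facing edge. For a member listed singly, this is the edge that faces the ATRi+APH 18 h gap. The middle Slit3 peaks are plotted only at their right edge, a choice made after seeing the data. A grey peak that stands between gaps is plotted for each of its gaps, so it can lie on both sides of the line. Coloured and grey points are therefore not built alike.

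Left and right peaks were of unequal width, and the left was the wider in 6 of the 7 representative pairs of ATRi+APH 18 h. With the middle and right peaks standing for Slit3 it was 5 of 7. In 39 of the 94 other pairs the left was the wider. The asymmetry, the right width minus the left over their sum, ran from −0.48 near Slit3 (left and middle peaks) through −0.26 near Cd24a, −0.25 near Rif1, −0.18 near Slc7a10, −0.14 in Pag1 and −0.07 near Ptgr2 to 0.26 in Myo5a. Left and right are given in genome direction and carry no strand. Near Slc7a10 the left peak was also the wider in ATRi (−0.09) and in ATRi+shTIM (−0.05). Between the middle and right Slit3 peaks the direction turned, with the right the wider in ATRi+APH 18 h (0.16) and the middle the wider in ATRi+APH 9 h (−0.10) and ATRi+shTIM (−0.11). The wider peak had the higher fold in 5 of the 7 pairs, the exceptions being Cd24a and Slit3, and in 53 of the 94 other pairs.

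Single peaks were listed 7 times at a locus where ATRi+APH 18 h held the pair. In 6 of these cases the listed side was the one of higher fold in ATRi+APH 18 h: the left Ptgr2 peak in 3 lists, the right Cd24a peak in 2 and the left Slc7a10 peak in ATRi+APH 9 h. The exception was the left Myo5a peak in ATRi, whose fold in ATRi+APH 18 h differed from that of the right peak by little, 22.1 against 22.5. Over other ATRi+APH 18 h pairs of which ATRi listed 1 side, it was the side of higher fold in 17 of 22, and in 15 of 23 for ATRi+APH 9 h and 14 of 24 for ATRi+shTIM.

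The lists were then compared edge by edge. Of the 15 ATRi+APH 18 h peaks at the loci, the other lists with ATR inhibitor overlapped 5 each, where ATRi overlapped 16.5%, ATRi+APH 9 h 19.9% and ATRi+shTIM 50.8% of all 327 peaks. DMSO overlapped none, where it overlapped 2.75% of all, and so did APH (0.306% of all). In all 15 of these matches the edge facing the gap differed less from its place in ATRi+APH 18 h than the far edge did. The facing edge shifted by a median of 11 bp (3 to 55 bp) and the far edge by 734 bp (7 to 3319 bp). Without the middle Slit3 peak, whose facing edge was a choice, it was 13 of 13. All matches share the ATRi+APH 18 h list and are not independent. The loci were also chosen on their pairs of mostly wide peaks in that list. That choice leaves the far edge more room to differ, so nothing is read from the count.

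Locus by locus, the facing edge of the left Slc7a10 peak varied over 52 bp across 4 lists, while its far edge varied over 3319 bp. For the right Slc7a10 peak these ranges were 64 and 2060 bp over 3 lists. For the left Ptgr2 peak they were 60 and 1121 bp over 4 lists, and for the right Cd24a peak 15 and 465 bp over 3 lists. For the right Slit3 peak they were 8 and 393 bp over 3 lists, and for the left Myo5a peak 8 and 734 bp over 2 lists. The middle Slit3 peak, which has a gap on either side in ATRi+APH 18 h, varied over 59 bp at both edges. ATRi+APH 18 h had the farthest far edge at all of these sites. It also had 3 ChIP libraries against 2, and the part of that in the width was not tested.

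The same measure was taken over other ATRi+APH 18 h pairs matched to the other lists, leaving out peaks between 2 gaps, which have no far edge. The facing edge shifted less in 76.5% of 81 matches, with medians of 17 bp for the facing and 242 bp for the far edge. Over other pairs of 2 peaks wider than 1 kb, again a subset chosen after seeing the data, it was 100% of 26 matches, with medians of 11.5 and 1651 bp. The other wide pairs thus also had inner edges that differed by little between lists and outer edges that differed by more.

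**Figure D4:**
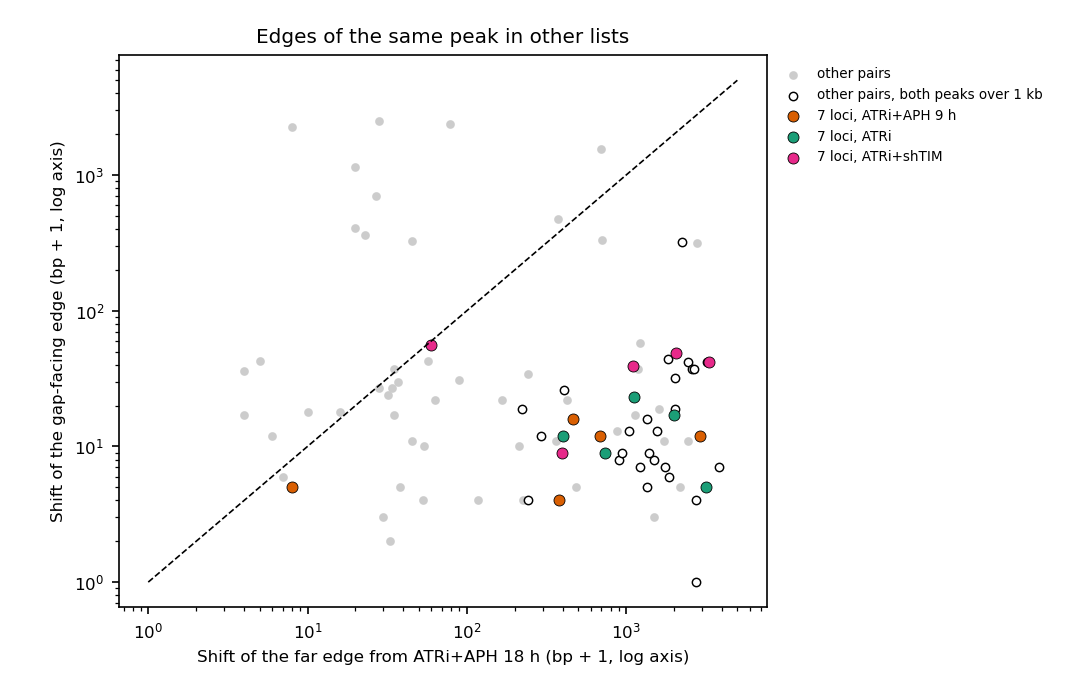
Shift of the gap-facing edge against shift of the far edge, in bp plus 1 on log axes, of each peak relative to ATRi+APH 18 h, for the 7 loci (colours by list), other pairs of 2 peaks over 1 kb (open) and other pairs (grey) in the 3 other lists with ATR inhibitor. All 15 member points lie below the dashed line of equality, with facing shifts of at most 55 bp.

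The direction of the small inner shifts differed between lists. In ATRi+shTIM all 5 member peaks reached further into the gap than in ATRi+APH 18 h, by 38 bp at the left Ptgr2 peak, 41 and 48 bp at the left and right Slc7a10 peaks and 55 and 8 bp at the middle and right Slit3 peaks. In other pairs 78.3% of 46 matched ATRi+shTIM peaks did so, and 77.8% of the 9 in pairs of 2 peaks over 1 kb. In ATRi none of the 5 member peaks reached further in (37.5% of 16 matched peaks of other pairs did, and 11.1% of the 9 in wide pairs), and in ATRi+APH 9 h 1 of 5 did, the right Slit3 peak by 3 bp (6.67% of 15 did, and 12.5% of the 8 in wide pairs). ATRi+shTIM came from 1 antibody lot, which cannot be told apart from the treatment.

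The pairs near Gdf3, which encodes a growth factor of early development, and Gata4, which encodes a zinc finger factor of cardiac tissue, gave values of the same kind. In ATRi+APH 18 h their gaps were 621 and 280 bp, with summits 83 and 189 bp from the gap near Gdf3 and 94 and 127 bp near Gata4. The Gdf3 gap was 622 bp in ATRi and 528 bp in ATRi+shTIM, and the Gata4 gap was 293, 300 and 196 bp in ATRi, ATRi+APH 9 h and ATRi+shTIM. Unlike Ptgr2 and Cd24a, Gata4 held a pair in all 4 lists with ATR inhibitor.

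Among the 94 other pairs of ATRi+APH 18 h, the 5 closest to the members' medians in gap and summed width, by distance on log2 scales, lay near Prkci (0.06), Asmt (0.71), Klf15 (0.81), Mtss1 (0.83) and in Cldn34-ps (0.83). The members' own distances ran from 0.36 for Rif1 to 1.7 for Slc7a10. This distance takes no account of fold or of how the summed width is split. Among the 5, both peaks were wider than 1 kb only near Prkci and in Cldn34-ps. The Asmt peaks were 282 and 1697 bp wide, with folds of 7.12 (rank 237) and 6.18 (rank 259). The Klf15 peaks were 3229 and 194 bp wide. The Prkci pair, 16324 bp from that atypical protein kinase C gene (chromosome 3, 31069064 to 31072746), had a gap of 461 bp, widths of 1083 and 2139 bp, and folds of 27.5 (rank 25) and 38.3 (rank 8). The other 3 lists with ATR inhibitor each held its right peak and none held the left. Both summits were on the gap side near Prkci, Klf15, Mtss1 and in Cldn34-ps, and not near Asmt.

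Lists of related genes were drawn up for the families of Ptgr2, Slit3, Slc7a10, Myo5a and Pag1 and for the pathway of Rif1, and none for Cd24a. No gene of these lists other than the members had a peak within the window. Of 24 family members found in the gene table (among them Slit1, Slit2, Robo1 to Robo4, Myo5b, Myo5c and Csk), 5 had an ATRi+APH 18 h summit inside or within 30 kb, and all 5 were the members themselves. Of 11 genes that protect broken DNA ends, such as Trp53bp1, Mad2l2 and Brca1, Rif1 was the only one with a peak, and of 17 genes of fork protection and ATR signalling, such as Atr, Timeless, Tipin and Clspn, none had a peak in any list. Over all protein-coding genes 1.11% had an ATRi+APH 18 h summit that close, 0.717% an ATRi+shTIM summit, 0.342% an ATRi+APH 9 h summit, 0.291% an ATRi summit, 0.185% a DMSO summit and 0% an APH summit. With rates this low, nothing is read from the absence in lists of 11 to 24 genes.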

How the data were processed

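RPA ChIP-seq lists of 6 treatments were analysed. MACS2 2.1.0, STAR 2.5.2a, Picard 1.141, bcl2fastq 2.17.1.14, SAMtools 0.1.19 and mm10 are listed in the submitters' processing notes. Their roles, settings and thresholds are not given in the sources used here. Peak names in the deposited lists record all ChIP against all input libraries of a treatment. Per peak, the deposited files give a score (10 times the −log10 p, decimals dropped, in all 683 peaks, and not used), the authors' fold (a ratio of ChIP over input), the −log10 p and −log10 q of the authors' peak caller and the summit offset. Chromatin was sheared before the precipitation and again for the libraries, per the labels' protocols, and fragment length limits how finely an edge can be placed.

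Members were peaks with a summit inside or within 30 kb of 7 genes. Members and gene lists were chosen with earlier results of these data known. Gene positions are from RefSeq (GRCm38.p6, coordinates of mm10), on chromosomes 1 to 19 and X; 24 of 25 family genes were found (not Ptgr3). Ranks by fold give ties the best rank. A pair is 2 neighbouring peaks of a list at most 5 kb apart, and the pair of largest summed width stands for a locus. Peaks were matched between lists by at least 1 bp of overlap. No statistical test was made, since each treatment has 1 pooled list. Genes named are the members, their neighbours, those of the 5 pairs closest in gap and summed width, Gdf3 and Gata4. Functions were tested on simulated peaks. Python 3.11.15, pandas 2.3.3, numpy 2.4.6 and matplotlib 3.10.9 were used.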

Additional observations from a re-analysis of the deposited data

How the results depend on the processing

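Of 127 values recomputed under other settings, 110 stayed within 1.5 times the reported count or, for the median gap and width asymmetry, kept the reported value. These include the DMSO and APH counts, which were 0 under every setting and which filters or merging could not raise. Where a locus held 1 pair, choosing the pair by fold could not change its values either. The 110 is therefore no measure of how stable the results are. With a window of 10 kb, which leaves out the Cd24a, Slit3 and Slc7a10 loci, ATRi+APH 18 h held 8 peaks and 4 loci with a pair, ATRi 2 peaks, ATRi+APH 9 h 1, ATRi+shTIM 1, and each of these 3 lists 0 pairs. At a common −log10 p of at least 34, chosen after seeing the data, ATRi held 3 peaks at 2 loci and ATRi+shTIM 2 peaks at 1 locus, with 1 pair. ATRi+shTIM also kept 1 pair at a −log10 q of at least 10 or a fold of at least the pooled median of 9.83, and ATRi 3 peaks at that fold. Taking the pair of largest summed fold, the median size of the width asymmetry in ATRi+APH 18 h was 0.18 in place of 0.25, an alternative also added after seeing the data, as were those of window and fold for pairs. A window of 100 kb, a gap of 2 or 10 kb, merging peaks under 100 bp apart, a stricter rule for the gap side of a peak, and 50% coverage for sharing kept every value within these limits. No paired analysis was possible because each list pools its replicates, which also prevents leaving one out. Read depth is unknown, so its part in the number and width of peaks was not tested.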

Other observations

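Member values were often tied. In ATRi+APH 18 h the right Ptgr2 peak and the middle Slit3 peak had the same fold of 29.2 and the same −log10 p of 107, and the left Rif1 and left Myo5a peaks shared a fold of 22.1 and a −log10 p of 74. In that list 65 of 327 peaks had a fold held by at least 1 other peak, as did 54 of 188 in ATRi+shTIM, so neighbouring ranks can rest on small steps.

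Of the 94 other ATRi+APH 18 h pairs, ATRi+shTIM held both sides of 45 and 1 side of 24, ATRi both sides of 7 and 1 side of 22, and ATRi+APH 9 h both sides of 6 and 1 side of 23. ATRi+shTIM, which has the lowest floor of the 4 lists with ATR inhibitor, held no peak at Cd24a, Rif1, Myo5a or Pag1. Their peaks in ATRi+APH 18 h had −log10 p values of 35.5 to 129. At every site in both lists the −log10 p was lower in ATRi+shTIM. It was 25.4 against 179 at the left Ptgr2 peak and 14 against 107 at the middle Slit3 peak. At the left Slc7a10 peak it was 83.9 against 217. With read depth unknown, nothing is read from the absence. Cd24a and Myo5a had peaks in ATRi, whose floor is higher, at −log10 p values of 33.9 and 31.8.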
